A study of Mus musculus with 15 samples.

Results

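The tumour necrosis factor (TNF) ligand superfamily and the TNF receptor superfamily were followed in ear RNA of mice lacking *Socs3* in keratin 5-expressing cells. The members were the genes whose symbols begin with Tnfsf or Tnfrsf, together with *Tnf*, *Lta*, *Ltb*, *Fas*, *Fasl*, *Cd27*, *Cd40*, *Cd40lg*, *Ltbr*, *Ngfr*, *Eda*, *Edar* and *Eda2r*. This rule, which uses no measured value, found 44 of the 21110 genes in the expression tables. Of these, 17 encode ligands and 27 encode receptors: 7 receptors with a death domain, 16 without one, 3 decoy receptors and *Tnfrsf26*, which was not placed.

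The study asked how loss of *Socs3*, a feedback inhibitor of JAK-STAT3 signalling, changes gene expression in skin. All mice had the C57BL/6 background, and there were 15 libraries of 1 mouse each. Wild-type (WT) mice were sampled at 2 weeks of age (n = 4) and at 10 weeks (n = 3), and mice in which *Socs3* was deleted under keratin 5 control, the conditional knockout (*Socs3* cKO), likewise at 2 weeks (n = 4) and 10 weeks (n = 4). The keratin 5 promoter acts in basal keratinocytes, so ear cells not descended from keratin 5-expressing cells kept the gene. The labels state no litter, sex or floxed WT control. The labels name keratinocytes as the source but ear as the tissue, and markers of fibroblasts, muscle, mast cells and macrophages were present in every group, so the libraries hold RNA of more than keratinocytes. A lower share of a cell type and less RNA per cell cannot be told apart in such samples.

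Ligands of the TNF superfamily are trimeric proteins, mostly membrane-bound, that cluster their receptors. Receptors with a death domain can recruit adaptors that activate caspases, whereas most other receptors recruit TRAF proteins, which lead to NF-κB and MAP kinase activation. In skin the family is known for inflammation through TNF, for hair follicle formation through ectodysplasin, and for the control of lymphocytes by costimulatory pairs.

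Levels are FPKM, reads scaled by the length of the transcript and by the mapped total of the library so that they can be compared between genes. About 11400000 to 16600000 mapped reads per library were estimated from the smallest steps in the values. Differences are log2(FC), the log2 fold change of FPKM + 0.1, from limma fits over all genes. A gene was called when its Benjamini-Hochberg adjusted p was below 0.01 and its log2(FC) was at least 1 in size.

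Some libraries stood apart. *Socs3* cKO replicate 1 at 2 weeks had the largest FPKM sum and the strongest dependence on GC content (Spearman correlation across genes of -0.63 between its deviation from the mean and transcript GC). Over the groups this correlation ran from 0.40 to 0.46 in WT and -0.63 to -0.18 in *Socs3* cKO among 2-week mice, and from 0.08 to 0.29 in WT and -0.29 to -0.14 in *Socs3* cKO among 10-week mice, so it moved with genotype at both ages. WT replicates 1 and 3 at 10 weeks listed 2087 and 1414 genes at 0, against 3176 in replicate 2 and 4044 to 4423 in the other groups. The codes in the sample titles run in a separate range for each group, and the labels do not say what the codes mark. *Socs3* FPKM was 9.71 to 10.3 in WT and 1.25 to 12.6 in *Socs3* cKO for mice of 2 weeks, against 2.02 to 4.81 in WT and 29.8 to 47.7 in *Socs3* cKO at 10 weeks. The gene-level value did not separate the deleted part or the recombined cells, so it did not check the genotype labels and at 10 weeks ran opposite to them. WT and *Socs3* cKO therefore stand for the libraries labelled so, and every direction given rests on those labels.

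The promoters shown are 3, chosen because they belong to TNF and to its 2 receptors, which were all higher in *Socs3* cKO at 10 weeks. Each is the 250 bases before the gene's start in RefSeq (GRCm38.p6), 5′ to 3′ on the gene's strand. Capitals mark the letters TTCNNNGAA, the palindrome bound by STAT proteins. *Tnf* lies at chr17:35202008-35202257 on the minus strand, *Tnfrsf1a* at chr6:125349473-125349722 on the plus strand and *Tnfrsf1b* at chr4:145246871-145247120 on the minus strand.
Tnf: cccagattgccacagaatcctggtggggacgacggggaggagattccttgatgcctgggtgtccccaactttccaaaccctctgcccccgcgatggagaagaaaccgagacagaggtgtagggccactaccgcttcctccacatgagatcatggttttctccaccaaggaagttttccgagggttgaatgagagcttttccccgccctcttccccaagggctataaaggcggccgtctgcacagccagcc
Tnfrsf1a: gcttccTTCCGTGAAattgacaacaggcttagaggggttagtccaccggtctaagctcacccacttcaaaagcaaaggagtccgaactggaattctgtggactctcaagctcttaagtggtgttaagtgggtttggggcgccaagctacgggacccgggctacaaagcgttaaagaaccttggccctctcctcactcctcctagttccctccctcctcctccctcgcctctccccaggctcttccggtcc
Tnfrsf1b: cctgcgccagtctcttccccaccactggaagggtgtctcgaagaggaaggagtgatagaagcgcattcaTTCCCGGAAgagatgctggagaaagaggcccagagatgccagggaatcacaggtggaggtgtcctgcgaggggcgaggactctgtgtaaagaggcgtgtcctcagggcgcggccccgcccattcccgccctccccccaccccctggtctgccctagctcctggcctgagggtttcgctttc
The STAT letters began at position -244 from the start of *Tnfrsf1a* and at -181 from that of *Tnfrsf1b* (the base before the start being -1), and the *Tnf* window held none. Promoters were found for 35 of the 44 members, 39 windows in all. TTCNNNGAA was in 8 of them (20.5%), those of *Fas*, *Lta*, *Ltb*, *Tnfrsf18*, *Tnfrsf1a*, *Tnfrsf1b*, *Tnfrsf25* and *Tnfrsf9*, and in 7.02% of all 32851 windows. The AP-1 letters TGANTCA were in 6 of the 39 (15.4%) and in 6.75% of all windows. The NF-κB pattern, GGG and then TTTCC with any 2 bases between, was in 3 of the 39 (7.69%) and in 1.41% of all windows. Both strands were searched, and matches of different motifs did not overlap in any member's window. A match describes the letters only. Members that were not called, such as *Tnfrsf18*, or not tested, such as *Lta*, also held them. Of the members up-regulated at 10 weeks, *Tnf*, *Tnfrsf12a* and *Tnfrsf21* held none of these patterns, and no promoter was found for *Tnfsf9*.

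The superfamily spanned a wide range of levels in the ear. Of the 44 members, 10 stayed below an FPKM of 1 in every library, 8 of them ligands, and 14 reached at least 1 in every library. *Tnfrsf1a*, which encodes TNF receptor 1, had the highest mean of all members in WT mice, at 78.1 ± 2.83 (SD, n = 4) at 2 weeks and 35.2 ± 8.41 (SD, n = 3) at 10 weeks. *Ltbr*, the receptor for lymphotoxin β and LIGHT, followed with means of 35.3 ± 1.11 and 28.2 ± 2.00. At 10 weeks the WT ranges of *Tnfrsf1a* (29.9 to 44.9) and *Ltbr* (26.1 to 30.1) overlapped. *Tnfsf12*, which encodes TWEAK, was the ligand with the highest mean in WT at 2 weeks (14.0 ± 1.26), but 48.3% of its annotated exon bases are shared with the read-through gene *BC096441*, so its level is uncertain. *Fasl*, the ligand of Fas, did not exceed 0.204 in any library, which is about 5 reads.

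**Figure D1:**
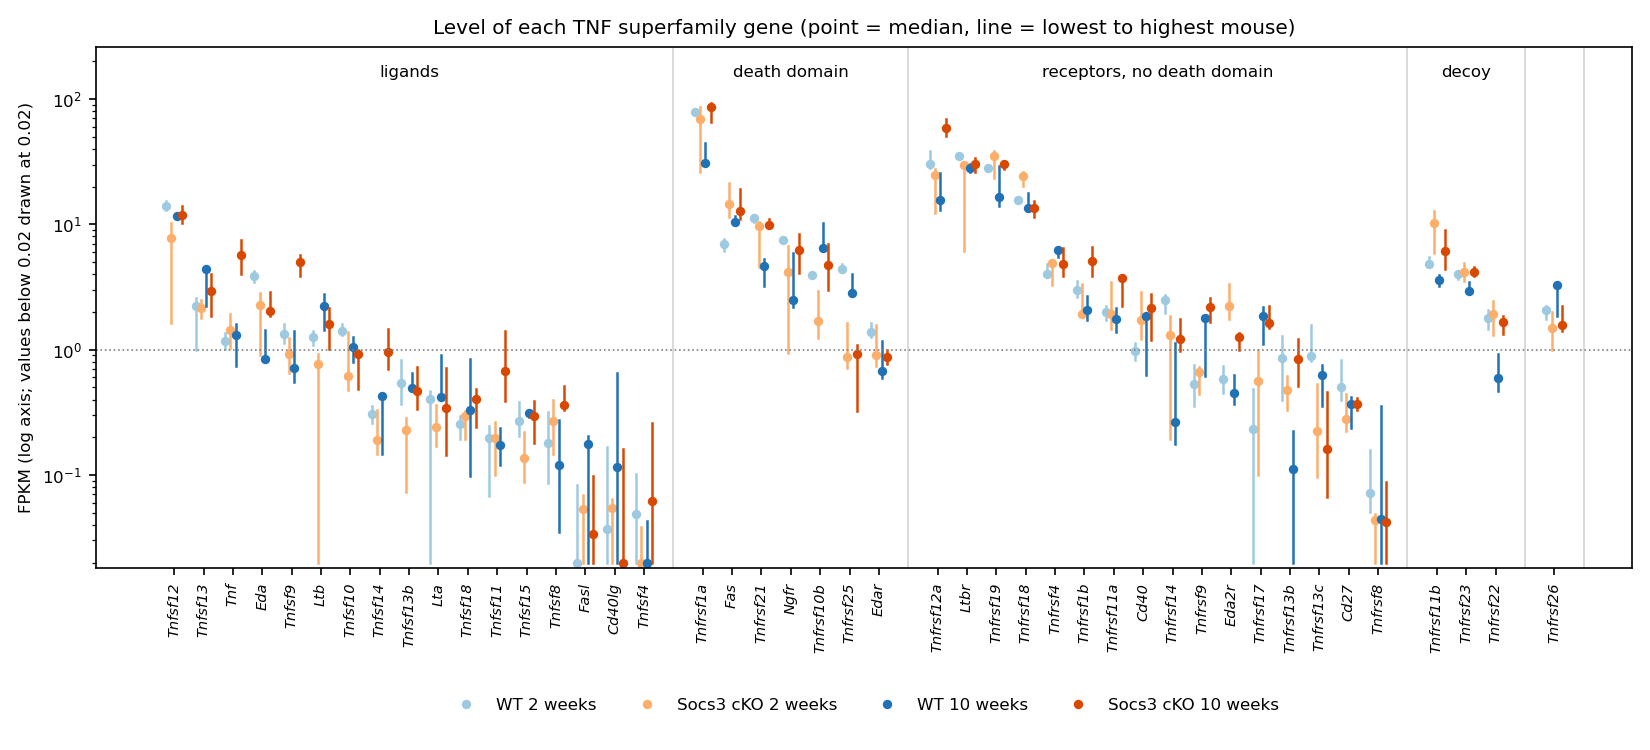
FPKM on a log axis for the 44 superfamily genes, grouped by role. Points are group medians, lines run from the lowest to the highest mouse, values below 0.02 are drawn at 0.02, and the dotted line is an FPKM of 1. Most ligands lie below the receptors, and *Tnf*, *Tnfsf9* and *Tnfrsf12a* stand highest in *Socs3* cKO at 10 weeks.

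At 2 weeks, 28 members passed the filter on low values (an FPKM of 1 or more in 3 or more of the 8 mice). Of these, 2 were up-regulated in libraries labelled *Socs3* cKO (*Eda2r* and *Fas*), where 7.24% of all tested genes were, and 1 was down-regulated (*Tnfrsf25*), where 7.19% of all tested genes were. The median log2(FC) was -0.45 over the tested members and -0.21 over the 13524 genes tested. Ligands had a median of -0.93 over the 7 tested, receptors with a death domain -0.47 over 7, receptors without one 0.08 over 10 and decoy receptors 0.07 over 3. No ligand was called. Without *Socs3* cKO replicate 2, *Tnfrsf11b* was also up-regulated, and *Tnfrsf10b* and *Tnfsf10* were also down-regulated, making 3 in each direction.

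*Eda2r* encodes a receptor for the A2 form of ectodysplasin. Its FPKM was 0.743, 0.448, 0.518 and 0.655 in the WT mice at 2 weeks and 3.32, 1.76, 2.25 and 2.20 in the *Socs3* cKO mice. Every *Socs3* cKO value was above every WT value. All WT values were below 1, so the gene passed the filter through the *Socs3* cKO mice alone. About 24 to 46 reads lay behind a WT value and 124 to 213 behind a *Socs3* cKO value. The log2(FC) was 1.83 ± 0.25 (SE; limma adjusted p = 0.00113), or 2.04 relative to the median gene. Without *Socs3* cKO replicate 1 it was 1.66 (limma adjusted p = 0.000277), and with the trend on GC content and length removed it was 1.26 (limma adjusted p = 0.00131). Over the 16 alternatives it ran from 1.07 to 2.29, and the gene was also called with no filter. The gene lies on chromosome X of mm9 from 94529179 to 94572555, and its transcript has 40.9% GC. At 10 weeks the WT mice had 0.447, 0.624 and 0.366 and the *Socs3* cKO mice 1.37, 1.0, 1.23 and 1.26. These groups did not overlap either, but the log2(FC) of 1.2 ± 0.29 missed the threshold (limma adjusted p = 0.0113).

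*Tnfrsf25* encodes death receptor 3, the receptor for TL1A on lymphocytes. Its FPKM at 2 weeks was 4.24, 4.29, 4.78 and 4.50 in WT and 0.719, 1.64, 0.809 and 0.933 in *Socs3* cKO. The values at 10 weeks were 4.03, 2.78 and 2.85 in WT and 1.08, 0.799, 1.03 and 0.322 in *Socs3* cKO. No *Socs3* cKO mouse of either age reached the level of any WT mouse. The log2(FC) was -2.08 ± 0.25 at 2 weeks (limma adjusted p = 0.000641) and -1.96 ± 0.38 at 10 weeks (limma adjusted p = 0.00461). It was the single member called at both ages, and the difference at 10 weeks less that at 2 weeks was 0.12 ± 0.47 (limma adjusted p = 0.84). With the GC and length trend removed the 2-week difference was -1.54 (limma adjusted p = 0.00194), and the 10-week difference was -1.44 and no longer called (limma adjusted p = 0.0199). The 10-week call was also lost without WT replicate 1, WT replicate 3 or *Socs3* cKO replicate 2. Its transcript, on chromosome 4 of mm9 from 151490043 to 151494228, has 59.4% GC, higher than in 93.7% of genes.

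*Fas*, the receptor of Fas ligand and a trigger of apoptosis, had FPKM of 6.07, 6.82, 7.10 and 7.70 in WT and 21.4, 11.5, 16.0 and 13.1 in *Socs3* cKO at 2 weeks. The groups did not overlap, and the log2(FC) was 1.12 ± 0.21 (limma adjusted p = 0.00469). This difference rested on the processing: with the GC and length trend removed it was -0.03 (limma adjusted p = 0.89), and the *Fas* transcript has 43.7% GC. The call was also lost without any 1 of the 8 mice except *Socs3* cKO replicate 2 (log2(FC) of 0.95 without replicate 1 of *Socs3* cKO, and adjusted p above 0.01 in limma without each of the others). At 10 weeks *Fas* FPKM was 11.6, 10.4 and 10.4 in WT and 11.9, 11, 13.5 and 19.0 in *Socs3* cKO. These groups overlapped, and the log2(FC) was 0.33 ± 0.21 (limma adjusted p = 0.238).

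The ectodysplasin ligand and its death-domain receptor, both needed for hair follicle formation, showed no called change between genotypes in the comparisons tested. *Eda* FPKM at 2 weeks was 4.27, 4.08, 3.64 and 3.49 in WT and 0.898, 2.82, 2.1 and 2.42 in *Socs3* cKO. All 4 *Socs3* cKO mice were below all WT mice, with a log2(FC) of -0.98 ± 0.33 (limma adjusted p = 0.0367). At 10 weeks the order was the other way, with 0.825, 1.44 and 0.847 in WT and 2.88, 2.12, 1.97 and 1.84 in *Socs3* cKO (log2(FC) of 1.04 ± 0.29, limma adjusted p = 0.0199). *Edar* overlapped between genotypes at 2 weeks, with 1.25 to 1.63 in WT and 0.735 to 1.58 in *Socs3* cKO (log2(FC) of -0.47 ± 0.25, limma adjusted p = 0.151). At 10 weeks *Edar* did not pass the filter, and without a filter its log2(FC) was 0.14 ± 0.3 (limma adjusted p = 0.735). Markers of the hair follicle matrix and shaft, 9 of 10 of which were in the tables, summed to 1850 to 2650 FPKM in WT and 8.81 to 50.0 in *Socs3* cKO among 2-week mice, and to 9.19 to 11.1 and 4.69 to 60.7 at 10 weeks. None of the 9 was at 0 in every library of a group. All 9 separated the genotypes at 2 weeks, lower in *Socs3* cKO. Other marker sums also separated them at that age, though not for every marker of a list. Skeletal muscle markers summed to 444 to 670 in WT against 1050 to 1590 in *Socs3* cKO (4 of 5 separately higher), mast cell markers to 456 to 486 against 549 to 1110 (4 of 5) and macrophage markers to 76.9 to 86.8 against 99.2 to 127 (3 of 5). T cell markers summed to 17.4 to 25.5 against 30.1 to 49.4, but 2 of 5, *Cd3d* and *Cd3g*, were separately higher and the other 3 overlapped. Fibroblast markers summed to 8230 to 9860 against 3550 to 5170, where *Col1a1* and *Col1a2* were lower, *Dcn* was higher and the other 2 overlapped. Endothelial markers summed to 61.6 to 68.8 against 44.8 to 55.9 and cartilage markers to 188 to 311 against 31.4 to 183, with 2 of 5 separately lower in each. The share of all genes that separated the genotypes in this way is not given here, so these marker counts have no background beside them. The part of these cells in the differences at 2 weeks was not tested.

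Other receptors at 2 weeks were not called. *Tnfrsf11b*, which encodes osteoprotegerin, a soluble decoy for RANKL, was 4.54 to 5.49 in WT and 5.94 to 12.8 in *Socs3* cKO (log2(FC) of 0.94 ± 0.24, limma adjusted p = 0.0148). *Ngfr*, the p75 neurotrophin receptor, was 7.33 to 7.89 in WT and 0.933 to 6.72 in *Socs3* cKO (log2(FC) of -1.19 ± 0.51, limma adjusted p = 0.0835). The lowest *Ngfr* value was in replicate 1, which was also the lowest of its group for *Ltbr* (6.11, against 29.5 to 31.7 in the other *Socs3* cKO mice). Without that library the log2(FC) was -0.62 for *Ngfr* and -0.21 for *Ltbr*, with adjusted p of 0.0199 and 0.0405 in limma. *Tnfrsf18* encodes GITR, a TNF superfamily receptor found on T cells. It had an adjusted p of 0.00945 in limma, but its log2(FC) of 0.58 ± 0.13 was below 1. *Tnfrsf18* shares 27.2% of its exon bases with *Gm16008* on the opposite strand, and the library kit does not mark strand. *Ltb*, encoding lymphotoxin β, was 1.08 to 1.40 in WT and 0.735 to 0.916 in 3 *Socs3* cKO mice, and was listed at 0 in replicate 1 (log2(FC) of -1.34 ± 0.70, limma adjusted p = 0.132). *Tnfsf10*, which encodes TRAIL, was 1.30 to 1.60 in WT and 0.478 to 1.38 in *Socs3* cKO (log2(FC) of -0.93 ± 0.31, limma adjusted p = 0.0388).

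**Figure D2:**
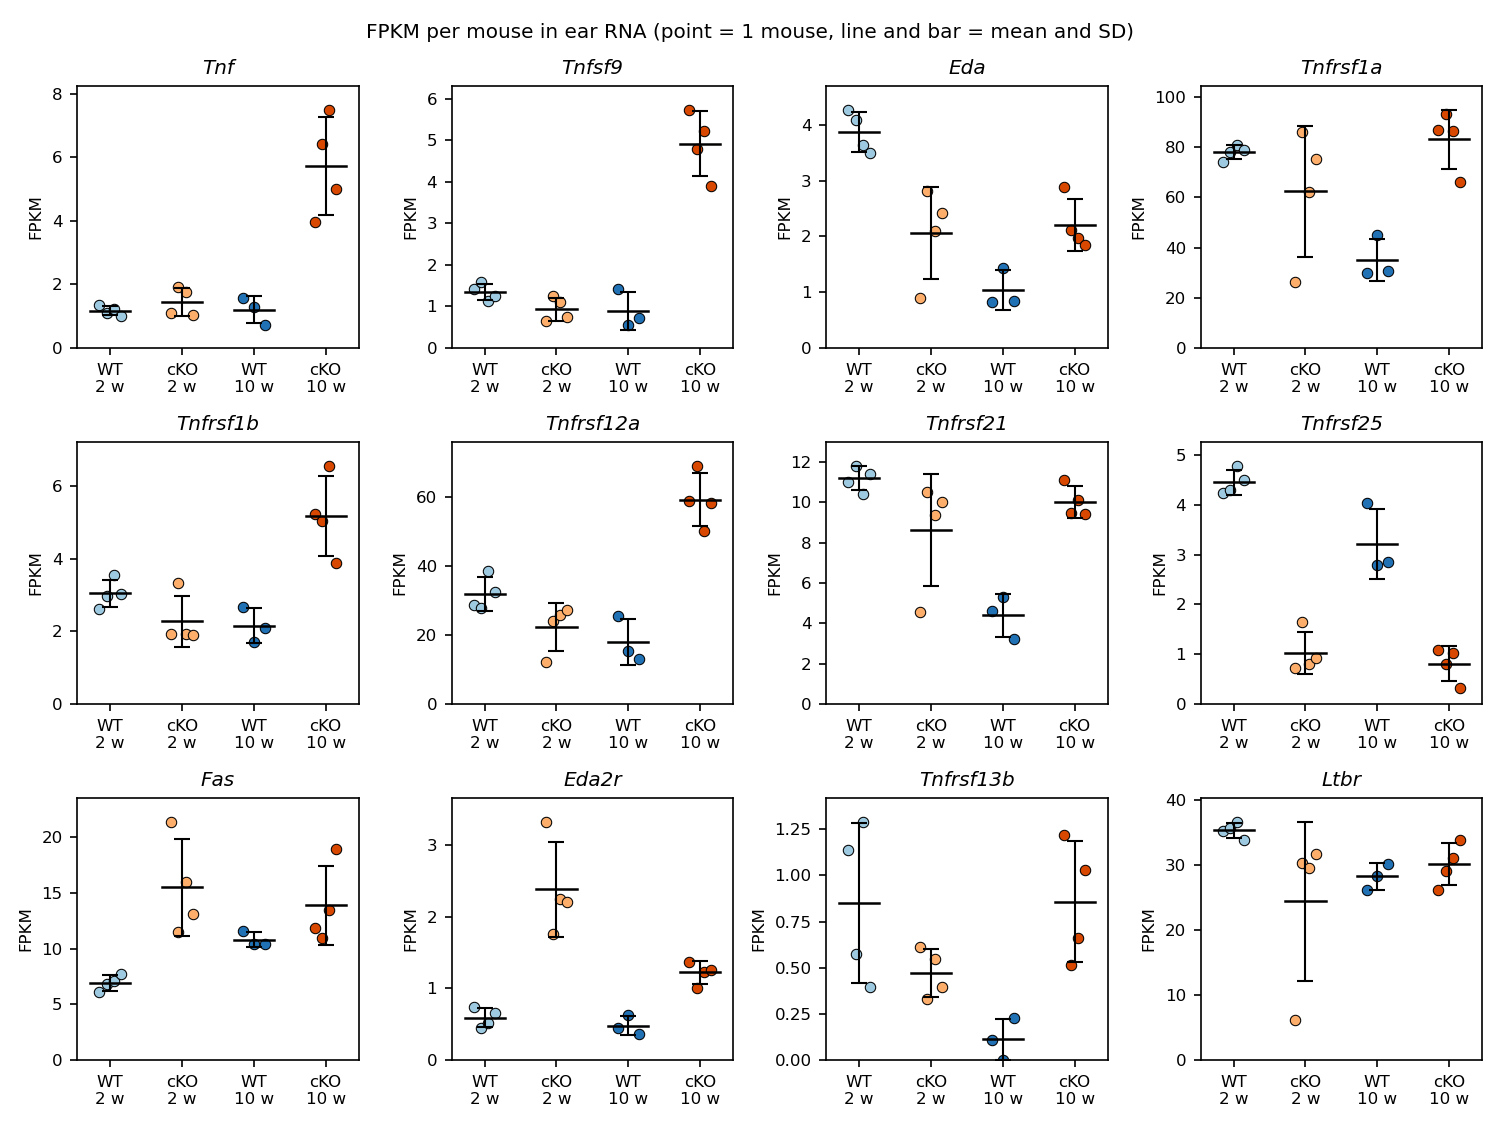
FPKM of 12 superfamily genes in every mouse, by genotype and age (2 w, 2 weeks; 10 w, 10 weeks). Points are single mice, lines are group means and bars are SDs. *Tnf* ranged from 3.98 to 7.5 in *Socs3* cKO at 10 weeks and from 0.738 to 1.92 in all other mice, while *Tnfrsf25* was low in *Socs3* cKO at both ages.

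At 10 weeks, 28 members passed the filter and 7 were called. Of these, 6 were up-regulated in libraries labelled *Socs3* cKO (*Tnfsf9*, *Tnf*, *Tnfrsf12a*, *Tnfrsf1a*, *Tnfrsf1b* and *Tnfrsf21*), where 12.5% of all tested genes were, and *Tnfrsf25* was down-regulated, where 2.43% of all tested genes were. The median log2(FC) was 0.69 over the tested members and 0.31 over the 13105 genes tested. By role, 2 of 6 tested ligands, 2 of 6 receptors with a death domain and 2 of 12 receptors without one were up-regulated, and none of the 3 decoy receptors was called. Without WT replicate 1, 3 members were up-regulated (*Tnf*, *Tnfrsf12a* and *Tnfsf9*).

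*Tnf*, the founding ligand of the family, had FPKM of 1.59, 1.30 and 0.738 in WT at 10 weeks and 3.98, 6.43, 7.5 and 5.01 in *Socs3* cKO. All *Socs3* cKO mice were above all WT mice, and about 97 to 182 reads per *Socs3* cKO library lay behind these values, against 17 to 38 in WT. The log2(FC) was 2.18 ± 0.31 (4.52-fold; limma adjusted p = 0.00122), or 1.86 relative to the median gene. The WT value of 0.738 was below 1, so the gene passed the filter only with the *Socs3* cKO mice counted. The gene was also called with no filter. At 2 weeks *Tnf* was 1.36, 1.1, 1.24 and 1.01 in WT and 1.09, 1.92, 1.77 and 1.04 in *Socs3* cKO. Those groups overlapped, with a log2(FC) of 0.24 ± 0.25 (limma adjusted p = 0.428). The gene lies on chromosome 17 of mm9 from 35336326 to 35338952 on the minus strand.

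*Tnfsf9* encodes the ligand of 4-1BB, a costimulator of T cells. Its FPKM at 10 weeks was 1.42, 0.552 and 0.718 in WT and 5.73, 4.79, 5.23 and 3.90 in *Socs3* cKO, with no overlap. The log2(FC) was 2.41 ± 0.31 (5.33-fold; limma adjusted p = 0.000777), or 2.1 relative to the median gene. The WT values of 0.552 and 0.718 were below 1, so the gene passed the filter only through the *Socs3* cKO mice. The gene was also called with no filter. At 2 weeks it was 1.41, 1.60, 1.14 and 1.25 in WT and 0.654, 1.24, 1.1 and 0.742 in *Socs3* cKO, which overlapped (log2(FC) of -0.52 ± 0.24, limma adjusted p = 0.0992). Its receptor gene *Tnfrsf9* was 1.83, 1.78 and 0.612 in WT and 2.26, 2.57, 2.15 and 1.66 in *Socs3* cKO at 10 weeks, and was not called (log2(FC) of 0.71 ± 0.37, limma adjusted p = 0.157).

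The receptor genes for TNF were also higher in *Socs3* cKO than in WT at 10 weeks. *Tnfrsf1a*, whose receptor carries a death domain, was 29.9, 44.9 and 30.8 in WT and 86.9, 93.3, 86.4 and 66 in *Socs3* cKO (log2(FC) of 1.25 ± 0.20, limma adjusted p = 0.00190). *Tnfrsf1b*, whose receptor lacks one, was 2.66, 1.72 and 2.09 in WT and 5.22, 5.04, 6.56 and 3.89 in *Socs3* cKO (log2(FC) of 1.22 ± 0.25, limma adjusted p = 0.00537). Neither pair of groups overlapped. Relative to the median gene the differences were 0.94 and 0.91. In *Socs3* cKO the *Tnfrsf1a* values at 10 weeks lay beside the 74.3 to 81.0 of WT mice at 2 weeks, and the 10-week WT mice were below both. The 2-week *Socs3* cKO mice had 26.2, 85.9, 62.1 and 75.3, and replicate 1 of these lay below every 10-week WT mouse. *Tnfrsf1b* in *Socs3* cKO at 10 weeks instead exceeded every other mouse of the series.

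*Tnfrsf12a* encodes Fn14, the receptor for TWEAK, which is known to be induced in injured tissue. Its FPKM at 10 weeks was 25.5, 15.5 and 13.0 in WT and 59.0, 69.1, 50.3 and 58.2 in *Socs3* cKO. The groups did not overlap, and the log2(FC) was 1.76 ± 0.23 (3.39-fold; limma adjusted p = 0.000881), or 1.45 relative to the median gene. At 2 weeks it was 28.7, 27.9, 38.6 and 32.4 in WT and 12.2, 24.0, 25.7 and 27.4 in *Socs3* cKO, all below the WT mice (log2(FC) of -0.57 ± 0.26, limma adjusted p = 0.102). *Tnfrsf12a* shares 8.1% of its exon bases with *Hcfc1r1* on the opposite strand, and the library kit does not mark strand. *Tnfsf12*, the gene of its ligand, was 11.7 to 12 in WT and 10.3 to 13.9 in *Socs3* cKO at 10 weeks (log2(FC) of 0.01 ± 0.18, limma adjusted p = 0.967).

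*Tnfrsf21*, which encodes death receptor 6, was 4.61, 5.30 and 3.24 in WT and 11.1, 9.48, 10.1 and 9.43 in *Socs3* cKO at 10 weeks, with no overlap (log2(FC) of 1.2 ± 0.21, limma adjusted p = 0.00275). As for *Tnfrsf1a*, the WT mice at 10 weeks were also below the WT mice at 2 weeks, which had 10.4 to 11.8. The 2-week *Socs3* cKO mice had 4.54, 10.5, 9.36 and 10.0, and replicate 1 of these lay within the 10-week WT range.

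The 6 genes up-regulated at 10 weeks differed in how far they depended on the libraries and on scaling. *Tnfsf9* and *Tnfrsf12a* were called under every alternative tried, including WT replicates 1 and 3 left out (2.93 and 1.91, limma adjusted p of 0.00674 and 0.00913). That alternative was chosen after seeing the data and leaves 1 WT mouse, assumed to vary like the other mice. *Tnf* was lost under it alone (2.02, limma adjusted p = 0.0341). *Tnfrsf1a*, *Tnfrsf1b* and *Tnfrsf21* were lost under it too (0.88, 1.51 and 0.90, limma adjusted p of 0.0835, 0.0494 and 0.0614) and fell below 1 with median-of-ratios scaling (0.96, 0.94 and 0.91), which brought the median of all genes to 0.02. Of the 16 alternatives, *Tnfrsf1b* was lost under 10, among them a pseudocount of 1, quantile normalization and each of 6 mice left out in turn (all but *Socs3* cKO replicate 4). *Tnfrsf21* was lost under 5, with quantile normalization and without WT replicate 1 or *Socs3* cKO replicate 1 besides, and *Tnfrsf1a* under 4, without WT replicate 1 or 3 besides. All 6 were called with the GC and length trend removed.

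**Figure D3:**
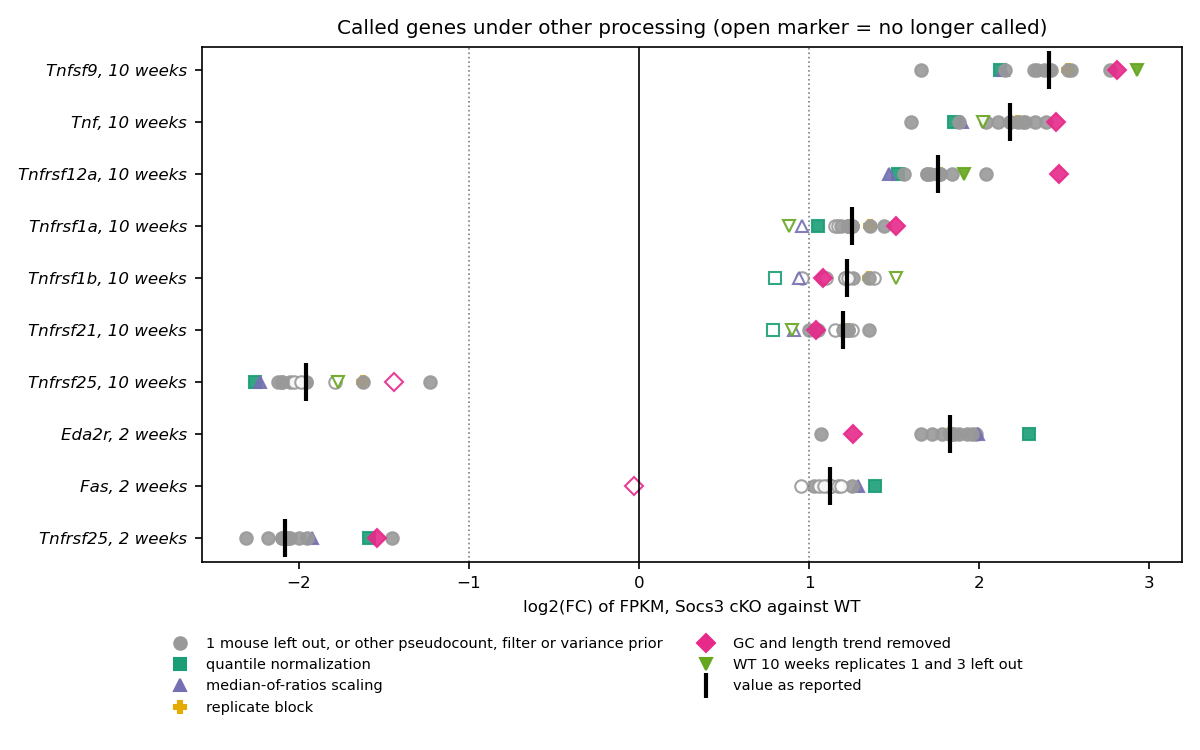
log2(FC) of the 10 member differences called between genotypes, under each alternative processing. Black bars are the values as reported, filled markers are alternatives in which the gene was still called and open markers those in which it was not. *Fas* at 2 weeks moved to -0.03 with the GC and length trend removed, while *Tnfsf9* and *Tnfrsf12a* kept filled markers throughout.

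RANK signalling genes were low or uncalled at 10 weeks. *Tnfsf11*, which encodes RANKL, was 0.239, 0.174 and 0.121 in WT and 0.388, 0.550, 0.802 and 1.41 in *Socs3* cKO, about 13 to 51 reads per *Socs3* cKO library. The groups did not overlap, but the gene did not pass the filter, and without a filter the log2(FC) was 1.57 ± 0.42 (limma adjusted p = 0.0232). *Tnfrsf11a*, which encodes RANK, was 1.77, 2.14 and 1.39 in WT and 3.83, 3.60, 3.94 and 2.25 in *Socs3* cKO (log2(FC) of 0.90 ± 0.27, limma adjusted p = 0.0283). *Tnfrsf11b* was 3.23 to 3.95 and 4.42 to 8.94 (log2(FC) of 0.77 ± 0.26, limma adjusted p = 0.0389).

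Several receptors showed overlapping groups at 10 weeks. *Tnfrsf19*, a receptor known from hair follicle stem cells, was 16.4, 29.1 and 13.9 in WT and 27.5 to 32.1 in *Socs3* cKO (log2(FC) of 0.67 ± 0.24, limma adjusted p = 0.0510), after 27.6 to 29.6 and 23.4 to 38.2 at 2 weeks. *Ngfr* was 2.49, 5.88 and 2.20 in WT and 4.10 to 8.39 in *Socs3* cKO (log2(FC) of 0.88 ± 0.38, limma adjusted p = 0.0894). *Ltbr* was 26.1 to 30.1 and 26.2 to 33.8 (log2(FC) of 0.09 ± 0.16, limma adjusted p = 0.668). The ligand *Ltb* was 1.43 to 2.76 and 1.02 to 2.15 (log2(FC) of -0.41 ± 0.32, limma adjusted p = 0.335).

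Markers of macrophages and of Langerhans and dendritic cells moved with genotype at 10 weeks. Macrophage markers, 5 of 6 of which were in the tables, summed to 62.8 to 91.6 FPKM in WT and 168 to 230 in *Socs3* cKO. Langerhans and dendritic cell markers (5 of 5 in the tables) summed to 527 to 629 in WT and 921 to 1100 in *Socs3* cKO. Endothelial markers (5 of 5 in the tables) summed to 13.8 to 19.6 and 32.8 to 44.6. Separately, all macrophage and Langerhans and dendritic cell markers were higher in *Socs3* cKO. Of the endothelial ones, *Pecam1*, *Cdh5* and *Kdr* were higher, and *Tek* and *Tie1* overlapped. As at 2 weeks, no share over all genes stands beside these counts. None of these markers was at 0 in every library of a group. Neutrophil markers (4 of 5 in the tables) overlapped, at 6.87 to 8.95 in WT and 2.63 to 8.0 in *Socs3* cKO, and 1 of them was at 0 in every *Socs3* cKO library. T cell markers (5 of 5) overlapped, at 35.3 to 37.9 and 33.4 to 51.8, and keratinocyte markers (5 of 5) at 4750 to 9510 and 7490 to 11500. The part of these cells in the higher values of *Tnf*, *Tnfsf9* and the 4 receptors in *Socs3* cKO than in WT was not tested.

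**Figure D4:**
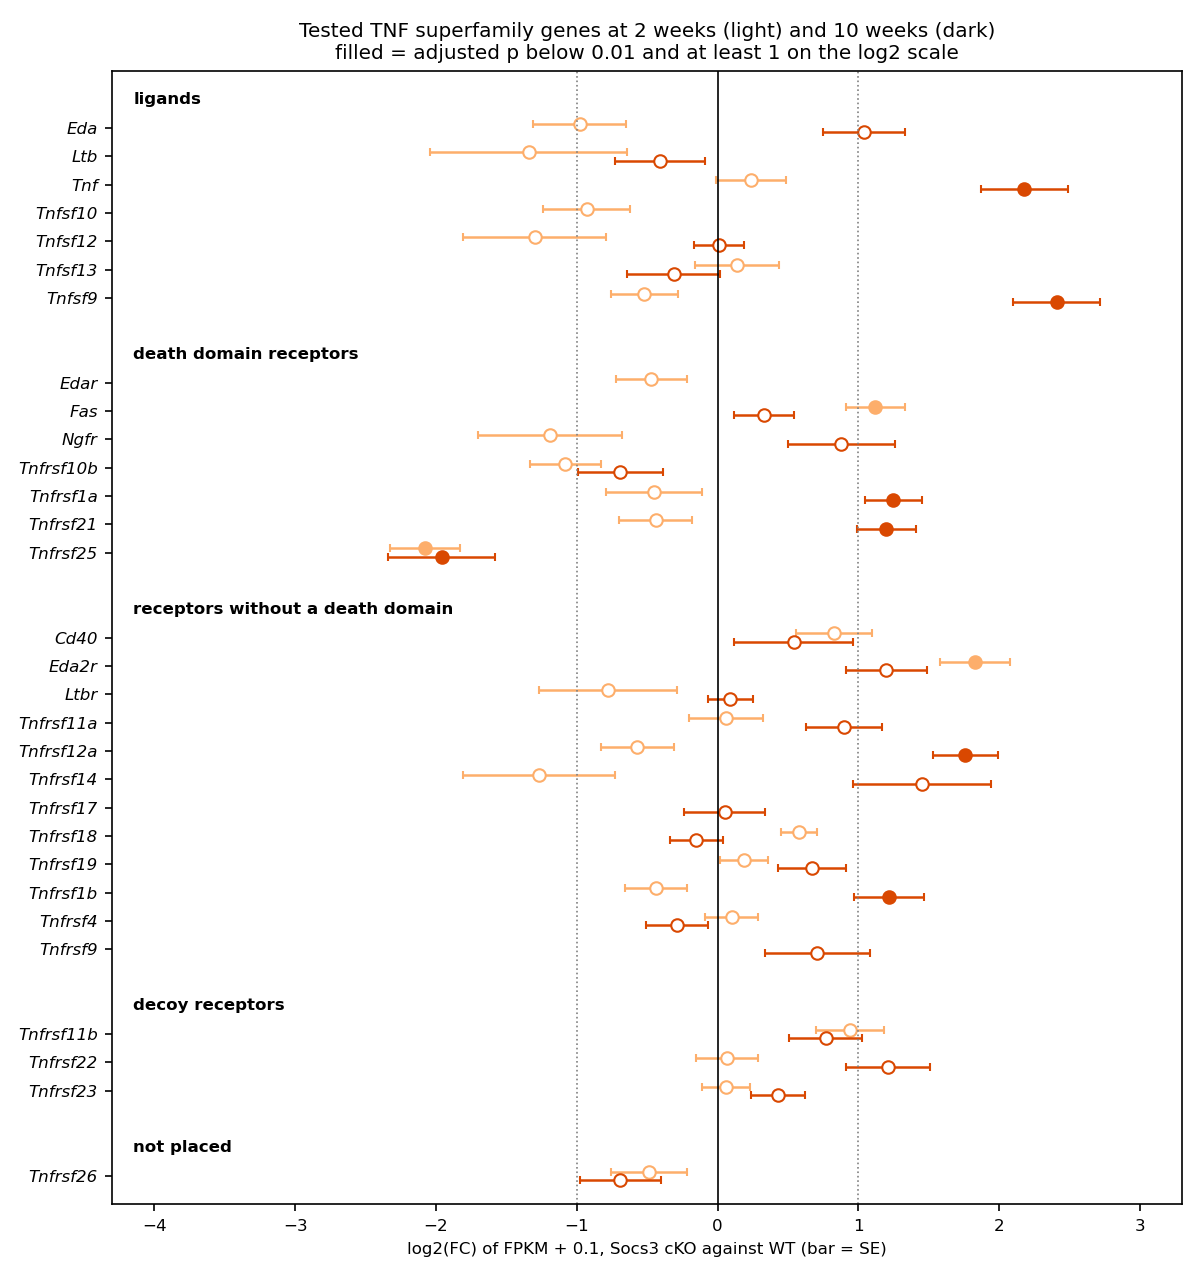
log2(FC) of FPKM + 0.1 between *Socs3* cKO and WT with its SE, for each superfamily gene tested at 2 weeks (light) or 10 weeks (dark), by role. Filled points were called and dotted lines mark a log2(FC) of 1 in either direction. Filled points number 3 at 2 weeks and 7 at 10 weeks, and *Tnfrsf25* alone is filled at both.

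Whether the genotype difference itself changed with age was tested as an interaction over all 15 mice, where 31 members passed the filter and an adjusted p below 0.01 made a call. The difference was higher at 10 weeks than at 2 weeks for 8 members, where 18.5% of all tested genes were, and lower for none, where 7.05% of all tested genes were. The 8 were *Tnfsf9* (2.93 ± 0.40), *Tnfrsf13b* (2.90 ± 0.62), *Tnfrsf12a* (2.33 ± 0.38), *Eda* (2.02 ± 0.44), *Tnf* (1.94 ± 0.41), *Tnfrsf1a* (1.71 ± 0.42), *Tnfrsf1b* (1.66 ± 0.33) and *Tnfrsf21* (1.64 ± 0.35), each on the log2 scale with its SE. The limma adjusted p ran from 0.000176 for *Tnfsf9* to 0.00603 for *Tnfrsf1a*. The median gene had an interaction of 0.55, and relative to it these values ran from 2.38 for *Tnfsf9* to 1.09 for *Tnfrsf21*. *Tnfrsf12a*, *Tnfrsf13b* and *Tnfsf9* were called under all 24 alternatives, WT replicates 1 and 3 at 10 weeks left out included. *Tnfrsf13b* reached an FPKM of 1 only in some WT mice at 2 weeks and some *Socs3* cKO mice at 10 weeks. High values in those groups raise the interaction, so the gene passed the filter only through them. Its size depended on the pseudocount, at 1.03 with a pseudocount of 1 and 4.35 with one of 0.01. *Tnf* was not called with quantile normalization (1.1, limma adjusted p = 0.0358) or without those replicates (1.78, limma adjusted p = 0.0297), and *Tnfrsf1a* was lost under 10 alternatives.

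*Tnfrsf13b* encodes TACI, a receptor for BAFF and APRIL on B cells. Its FPKM was 1.14, 0.572, 1.29 and 0.393 in WT and 0.614, 0.332, 0.545 and 0.398 in *Socs3* cKO among 2-week mice. The 10-week values were 0.111, 0 and 0.225 in WT and 1.22, 0.512, 0.663 and 1.03 in *Socs3* cKO. The 10-week groups did not overlap, but at most 8 reads lay behind a WT value and 21 to 46 behind a *Socs3* cKO value. The gene did not pass the filter within 10 weeks, and without a filter the log2(FC) was 2.27 ± 0.46 (limma adjusted p = 0.00847). B cell markers (5 of 5) summed to 2.16 to 4.15 FPKM in WT and 0.891 to 2.46 in *Socs3* cKO at 10 weeks, with 1 of them at 0 in every *Socs3* cKO library of that age.

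Within a genotype, age was compared in the same fit. From 2 to 10 weeks in WT, 6 members were down-regulated (*Tnfrsf14*, *Tnfrsf13b*, *Eda*, *Tnfrsf21*, *Tnfrsf22* and *Tnfrsf1a*), where 19.4% of all tested genes were, and *Tnfrsf17* was up-regulated, where 6.18% of all tested genes were. *Tnfrsf14*, the gene of the LIGHT receptor HVEM, went from 1.96 to 2.72 at 2 weeks to 0.176 to 1.13 at 10 weeks (log2(FC) of -2.32 ± 0.58, limma adjusted p = 0.00479). *Eda* had a log2(FC) of -1.84 ± 0.32 (limma adjusted p = 0.000491). With WT replicates 1 and 3 at 10 weeks left out, *Tnfrsf13b* alone remained called. In *Socs3* cKO, 6 members were up-regulated from 2 to 10 weeks (*Tnfsf9*, *Tnf*, *Tnfrsf9*, *Tnfrsf12a*, *Tnfrsf10b* and *Tnfrsf1b*), where 2.01% of all tested genes were, and none was down-regulated, where 1.53% of all tested genes were. *Tnfsf9* rose by 2.30 ± 0.27 (limma adjusted p = 0.000114) and *Tnf* by 1.92 ± 0.28 (limma adjusted p = 0.000577). The count fell to 3 without replicate 3 or 4 of the 2-week *Socs3* cKO mice or replicate 1 or 3 of the 10-week ones, and to 2 (*Tnf* and *Tnfsf9*) without replicate 2 at 10 weeks. *Tnfrsf10b*, the mouse TRAIL receptor, went from 1.23 to 2.92 up to 2.98 to 6.92 (log2(FC) of 1.32 ± 0.28, limma adjusted p = 0.00763). The within-genotype and interaction comparisons share mice and are not independent of those between genotypes.

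Other genes of the pathway were examined as a list of 37 signalling genes. It held adaptors, kinases, ubiquitin enzymes, cell death genes, NF-κB genes and the protease gene *Adam17*. Of the 37, 34 were measured and all of these were tested. At 2 weeks 1 was up-regulated, where 7.24% of all tested genes were, and 2 were down-regulated, where 7.19% of all tested genes were. *Tank*, a TRAF-binding adaptor, had a log2(FC) of 1.13 ± 0.19 (limma adjusted p = 0.00339). *Traf1*, an adaptor of TNF receptor 2, was 3.31 to 3.93 in WT and 0.411 to 1.25 in *Socs3* cKO (log2(FC) of -2.43 ± 0.31, limma adjusted p = 0.000943). *Rnf31*, a subunit of the linear ubiquitin ligase, had a log2(FC) of -1.56 ± 0.32 (limma adjusted p = 0.00737). The list's median was -0.41, beside -0.21 over all genes tested. *Traf1* was called under every alternative, whereas with the GC and length trend removed *Tank* was at 0.02 (limma adjusted p = 0.923) and *Rnf31* at -0.47 (limma adjusted p = 0.0320). The count of 3 became 1 without any 1 of the WT mice or without *Socs3* cKO replicate 3 or 4, and 7 without *Socs3* cKO replicate 2.

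At 10 weeks 10 of the 34 signalling genes were up-regulated, where 12.5% of all tested genes were, and none was down-regulated, where 2.43% of all tested genes were, with a median of 0.71 beside 0.31 over all genes tested. *Tnfaip3* encodes A20, a deubiquitinase that limits NF-κB activation. It was 1.63, 3.39 and 1.43 in WT and 80.0, 86.0, 116 and 63.1 in *Socs3* cKO, far above every other mouse (log2(FC) of 5.33 ± 0.30, limma adjusted p = 9.84e-06). *Nfkbia*, encoding the NF-κB inhibitor IκBα, was 40.2, 41.7 and 26.9 in WT and 318, 331, 387 and 197 in *Socs3* cKO (log2(FC) of 3.07 ± 0.26, limma adjusted p = 8.63e-05). *Birc3*, encoding an inhibitor of apoptosis bound to TRAF proteins, was 6.66 to 8.30 and 23.7 to 33.8 (log2(FC) of 1.87 ± 0.18, limma adjusted p = 0.000187). The smallest called differences were those of *Nfkb1* (1.14 ± 0.21), *Tank* (1.17 ± 0.23) and *Nfkb2* (1.2 ± 0.20), with adjusted p of 0.00379, 0.00462 and 0.00229 in limma. The count of 10 fell to 4 with median-of-ratios scaling and to 1 without WT replicates 1 and 3, and was 3 without WT replicate 1 or 3, 4 without *Socs3* cKO replicate 1 or 2 and 5 without *Socs3* cKO replicate 3. *Tnfaip3* was called under every alternative, and *Nfkbia* and *Birc3* under all but WT replicates 1 and 3 left out.

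The Tnfaip list held 8 genes, those named for their induction by TNF and the relatives of *Tnfaip8*. None was called at 2 weeks, where 7.24% of all tested genes were up-regulated and 7.19% down-regulated, and 3 were up-regulated at 10 weeks, where 12.5% of all tested genes were. Beside *Tnfaip3* these were *Tnfaip6* and *Tnfaip2*. *Tnfaip6*, which encodes the hyaluronan-binding protein TSG-6, was 5.83, 7.55 and 4.51 in WT and 128, 112, 178 and 124 in *Socs3* cKO (log2(FC) of 4.49 ± 0.22, limma adjusted p = 5.1e-06). *Tnfaip2* was 3.3, 3.68 and 3.38 in WT and 54.1, 47.1, 55.6 and 34.2 in *Socs3* cKO (log2(FC) of 3.73 ± 0.20, limma adjusted p = 6.19e-06). At 2 weeks both genotypes lay between 1.32 and 6.21 for *Tnfaip2* and between 7.99 and 16.0 for *Tnfaip6*. Both were called under every alternative, and the other 5 Tnfaip genes were not called at 10 weeks.

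The 23 members not named by rule included the lymphocyte genes *Cd27*, *Cd40*, *Cd40lg*, *Tnfrsf4*, *Tnfrsf8* and *Tnfrsf17*. *Cd27*, *Cd40lg* and *Tnfrsf8* did not pass the filter at either age, nor *Tnfrsf17* at 2 weeks, so these were not tested there. The comparisons that were tested gave no call between genotypes. *Cd40* at 2 weeks was 0.83 to 1.12 in WT and 1.21 to 2.88 in *Socs3* cKO, without overlap (log2(FC) of 0.83 ± 0.27, limma adjusted p = 0.0352). *Tnfsf14*, which encodes LIGHT, was 0.696 to 1.46 in *Socs3* cKO and 0.147 to 0.445 in WT at 10 weeks, below the filter, with a log2(FC) of 1.37 ± 0.41 without it (limma adjusted p = 0.0340). Without a filter *Tnfsf14* was called in the interaction (1.78 ± 0.45, limma adjusted p = 0.00790) and for age in *Socs3* cKO (1.81 ± 0.31, limma adjusted p = 0.00274), on about 4 to 10 reads per *Socs3* cKO library at 2 weeks and 19 to 40 at 10 weeks. *Tnfrsf22*, *Tnfrsf23* and *Tnfrsf26* form a cluster of related genes on chromosome 7 that can share reads, so their values are uncertain, and none was called between genotypes.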

How the data were processed

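Total RNA from ears of 15 mice was sequenced by the authors with an unstranded kit, and reads were aligned to mm9 with TopHat2 2.1.0. The submitters' processing notes also name Cufflinks, without its role. The authors deposited 1 table per mouse of FPKM values, reads scaled by transcript length and library total, for 21110 genes. WT mice beyond these 15 libraries were not analysed here. The study's own test was run on counts, whereas FPKM values need a test on the log scale.

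Values were fitted as log2(FPKM + 0.1) in limma 3.58.1 (R 4.3.3), 2-sided and with the prior variance following mean expression, over genes that reached an FPKM of 1 in 3 or more of the fitted mice. Benjamini-Hochberg adjustment ran over all tested genes. A call needed an adjusted p below 0.01 and a log2(FC) of at least 1 in size, or the adjusted p alone for the interaction. Genotypes were compared within each age, and age and the interaction in 1 fit of all mice. The pseudocount understates changes of low genes. Nothing in the labels pairs mice. The p-values set a difference between group means against the spread between mice within groups. They do not cover any difference in handling between whole groups, which cannot be told apart from genotype or age here.

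The members and lists were chosen with earlier results of these data known. Named were the members called between genotypes or in the interaction, *Tnf*, *Fas*, *Fasl*, *Eda*, *Edar*, *Eda2r*, *Ngfr*, *Tnfrsf1a*, *Tnfrsf1b*, *Tnfsf10*, *Tnfsf11*, *Tnfrsf11a*, *Tnfrsf11b*, *Tnfrsf12a*, *Tnfrsf19*, *Ltb* and *Ltbr*, and from the signalling and Tnfaip lists the 3 largest and 3 lowest called. Other genes named by value were chosen after their values were seen. Gene positions, transcript lengths and GC content were taken from GENCODE for mm9, where all 44 members had a transcript and 43 had 1 locus. Reads per library and behind a value were estimated from the FPKM of 1 read and are approximate. No 2 libraries shared more than 1 identical value above 0.

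On simulated data the test recovered 71 of 100 genes planted at 2 on the log2 scale and 84 of 100 at 3 for 2 weeks, with 0 false calls among 13075 genes, and 77 and 93 of 100 for 10 weeks, with 1 false call among 12756. The simulated noise was normal, independent between mice and of equal spread in both groups. Differences were planted only in genes with a mean FPKM of at least 2. No GC trend, shift of the median gene or deviant library was simulated, so the false calls do not measure errors from these. Alternatives were other pseudocounts, no filter, quantile and median-of-ratios scaling, the replicate number as a block, a constant prior variance and each mouse left out. Removal of a trend on GC content and length (splines of 4 degrees of freedom each) and of WT replicates 1 and 3 at 10 weeks were added after seeing the data.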

Additional observations from a re-analysis of the deposited data

Results flagged for a closer look

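In *Socs3* cKO at 2 weeks, the *Ltbr* FPKM of 6.11 in replicate 1 lay far below the other 3 mice of its group. In the same group, the *Tnfrsf1b* FPKM of 3.32 in replicate 2 lay far above the others. These were 2 of the 63 groups of 4 values of named genes examined, and chance alone gives about 1 in 20.

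The difference between genotypes changed with age for 8 members by the interaction test in limma, as values on the log2 scale of the 10-week difference less the 2-week difference: 2.93 for *Tnfsf9*, 2.90 for *Tnfrsf13b*, 2.33 for *Tnfrsf12a*, 2.02 for *Eda*, 1.94 for *Tnf*, 1.71 for *Tnfrsf1a*, 1.66 for *Tnfrsf1b* and 1.64 for *Tnfrsf21*. GC dependence also differed between the 4 groups, and its part in these values was not tested beyond the alternatives given.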

How the results depend on the processing

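At 2 weeks *Eda2r* and *Tnfrsf25* were called under every alternative, and at 10 weeks *Tnfsf9* and *Tnfrsf12a* were. Up-regulated members at 2 weeks numbered 1 in place of 2 with the replicate block and 1 with the GC and length trend removed, and down-regulated members 3 in place of 1 with that trend removed. At 10 weeks up-regulated members numbered 3 in place of 6 with median-of-ratios scaling and 2 with WT replicates 1 and 3 left out, and down-regulated members 0 in place of 1 with the GC and length trend removed and 0 with those replicates left out. With them left out, the interaction had 3 calls in place of 8 and age in WT 1 in place of 7. Signalling genes called at 2 weeks numbered 1 in place of 3 with the block and 1 with the GC and length trend removed. At 10 weeks they numbered 6 in place of 10 with no filter, 5 with quantile normalization, 4 with median-of-ratios scaling, 6 with the trend removed and 1 with WT replicates 1 and 3 left out.

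With 1 mouse left out, the counts ranged from 1 to 3 up and 1 to 3 down at 2 weeks, 3 to 9 up and 0 to 1 down at 10 weeks, 6 to 11 in the interaction, 5 to 8 for age in WT, 2 to 6 for age in *Socs3* cKO, 1 to 7 and 3 to 13 for signalling genes at 2 and 10 weeks, and 3 to 4 for Tnfaip genes at 10 weeks. The lowest count of up-regulated members at 10 weeks came without WT replicate 1 and the highest without WT replicate 2.

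Directions turned for members that were not called, except *Fas*. With quantile normalization the log2(FC) was 0.06 for *Edar* and 0.06 for *Tnfrsf1b* at 2 weeks, and -0.04 for *Fas* and -0.18 for *Ltbr* at 10 weeks. With median-of-ratios scaling it was -0.20 for *Ltbr* at 10 weeks. With the GC and length trend removed it was -0.03 for *Fas*, 0.07 for *Ltbr*, 0.18 for *Tnfrsf1b* and 0.01 for *Tnfrsf21* at 2 weeks, and 0.36 for *Ltb* at 10 weeks. Without WT replicates 1 and 3 *Ltb* at 10 weeks was 0.10, and *Tnfrsf11a* at 2 weeks ran from -0.17 (without *Socs3* cKO replicate 2) to 0.23 with 1 mouse left out. The causes were not tested. The median of all genes was -0.21 at 2 weeks and 0.31 at 10 weeks, 0.05 and -0.02 with quantile normalization, and -0.04 and 0.02 with median-of-ratios scaling.

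Mice with the same replicate number did not deviate together (r of -0.06 to 0.06 at 2 weeks and -0.20 to 0.04 at 10 weeks), so the number does not pair them, and the block changed no other count between genotypes by over 1.5 times. Ligands below an FPKM of 1 rest on few reads, which limits the precision of their values.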
